A study of Arabidopsis thaliana with 9 samples.

Results

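The tau and phi glutathione transferases of Arabidopsis thaliana were taken as 41 genes out of the 38202 in the count table. They were listed by gene identifier and family name, with earlier results of these data known. GSTU1 to GSTU28 form the tau class with 28 genes, and GSTF2 to GSTF14 form the phi class with 13 genes. The plants were of the ecotype Columbia, grown for 6 days in MS medium, and RNA was taken from leaves. Total RNA sequencing was done on 9 libraries, 3 for each agent named in the labels. CK was read as the control without silver, Ag+ as silver ions, and AgNPs as silver nanoparticles. No dose or length of exposure is stated in the labels. Per the labels, RNA was pooled, and nothing ties a library to plants of its own. The p-values therefore measure the spread between these libraries only, which may be technical.

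Glutathione transferases join the tripeptide glutathione to electrophilic compounds, such as herbicides and oxidized lipids, and the conjugates are then carried into the vacuole and broken down. Some members also act as glutathione peroxidases, or bind and carry small molecules without changing them. Both classes are large in plants and expanded in Arabidopsis by tandem duplication. Many members are known to respond to xenobiotics, oxidants and stress hormones.

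Of the 41 genes, 29 sat in 9 tandem clusters, 23 of them tau and 6 of them phi, and 12 stood alone. The largest cluster was GSTU1 to GSTU7 on chromosome 2, with 7 genes on the minus strand, followed by GSTU19 to GSTU23 on chromosome 1 with 5 genes. GSTF4 to GSTF7 formed the largest phi cluster, with 4 genes on chromosome 1. The 28 tau genes each had 2 exons in the RefSeq annotation of TAIR10.1, while 10 of the 13 phi genes had 3, the others having 2 to 5. Identity between coding sequences had a median of 55.9% over the 378 tau pairs and 53.7% over the 78 phi pairs. Between a tau and a phi gene it reached 51% at most. No member's transcript shared an exact stretch of 150 bases, read on the coding strand, with a transcript of another coding gene. An exact read of that length thus told the members apart. Genes that overlap a member on the opposite strand were not covered by this comparison.

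Libraries held 16884010 to 19876151 counts, and the members took 0.319% to 0.519% of these. Phi genes took 1.85 to 3.46 times as many counts as tau genes. After a filter on low counts, 19889 genes were tested, among them 37 members: 24 of the 28 tau genes and all 13 phi genes. GSTU3, GSTU15 and GSTU21 held 0 to 2 counts in each library, and GSTU28 held 4 to 14, so these 4 were not tested. A gene was called where the adjusted p of edgeR's quasi-likelihood test, over all genes tested, was under 0.05. One library stood apart: in AgNPs 1, 13 of 15 root marker genes were at their highest. Their median there was 6.27 CPM (counts scaled to a common library size) against 0.853 to 2.28 in the other libraries. The root marker PYK10 was high in every library. Over the 9 libraries the root markers summed to 1893 to 3336 CPM, and without PYK10 to 24.6 to 138 CPM. CK 3, AgNPs 2 and AgNPs 3 stood apart in summed heat-shock genes, at 1004, 1106 and 1457 CPM against 67.7 to 309 elsewhere. As a covariate, the mean log CPM of the heat-shock genes was centred within each group. It thus does not adjust for heat-shock differences between the groups. With it, 5 members were called with Ag+, 5 with AgNPs and 0 between the agents. Of all genes, 1638, 1093 and 452 were called. The 6 leaf markers, none at 0 in any library, summed to 21874 to 31781 CPM in CK, 32613 to 38708 CPM with Ag+ and 24036 to 31641 CPM with AgNPs. Every Ag+ library was thus above every CK library, and 2 of the 6 were called higher with Ag+ and 1 with AgNPs. The part of the root and leaf marker levels in the results was not tested beyond the values without AgNPs 1.

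Both classes rested on a handful of genes. On a scale of CPM per kb of transcript, the highest mean level over the 9 libraries belonged to GSTF9, at 746, followed by GSTF10 at 734, GSTF6 at 432, GSTU19 at 373, GSTF7 at 274, GSTU20 at 235 and GSTF2 at 228. The next member, GSTU5, stood at 87.1. GSTF9 and GSTF10 together made up 59.3% of the summed CPM of the phi class, and the top 5 phi genes, which add GSTF6, GSTF2 and GSTF7, made up 99.2%. GSTU19 and GSTU20 made up 59.8% of the tau sum, and the top 5 tau genes 82.7%. The phi class had no gene between 10 and 100 CPM, with 5 above, 6 at 1 to 10 and 2 under 1. The tau class filled the middle: 3 genes stood at 100 CPM or more, 10 at 10 to 100, 9 at 1 to 10 and 6 under 1.

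The summed tau level was 861, 864 and 1070 CPM in the CK libraries, 1141, 1317 and 1218 CPM with Ag+, and 1503, 1221 and 1153 CPM with AgNPs. Every silver library was above every CK library. The summed phi level was 2979, 2318 and 2179 CPM in CK, 3296, 2437 and 2844 CPM with Ag+, and 3055, 3753 and 3733 CPM with AgNPs. Here Ag+ overlapped CK, while the AgNPs libraries were all above CK. The log2 ratio of group means was 0.40 for tau and 0.20 for phi with Ag+, beside 0.41 for the leaf markers, whose part in this was not tested, and 0.47 for tau and 0.50 for phi with AgNPs. Both use the same CK libraries and no test was made of these sums. Without GSTF9, the phi ratio with Ag+ was -0.08. In bulk RNA, a larger number of cells of one type and more RNA per cell cannot be told apart.

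**Figure D1:**
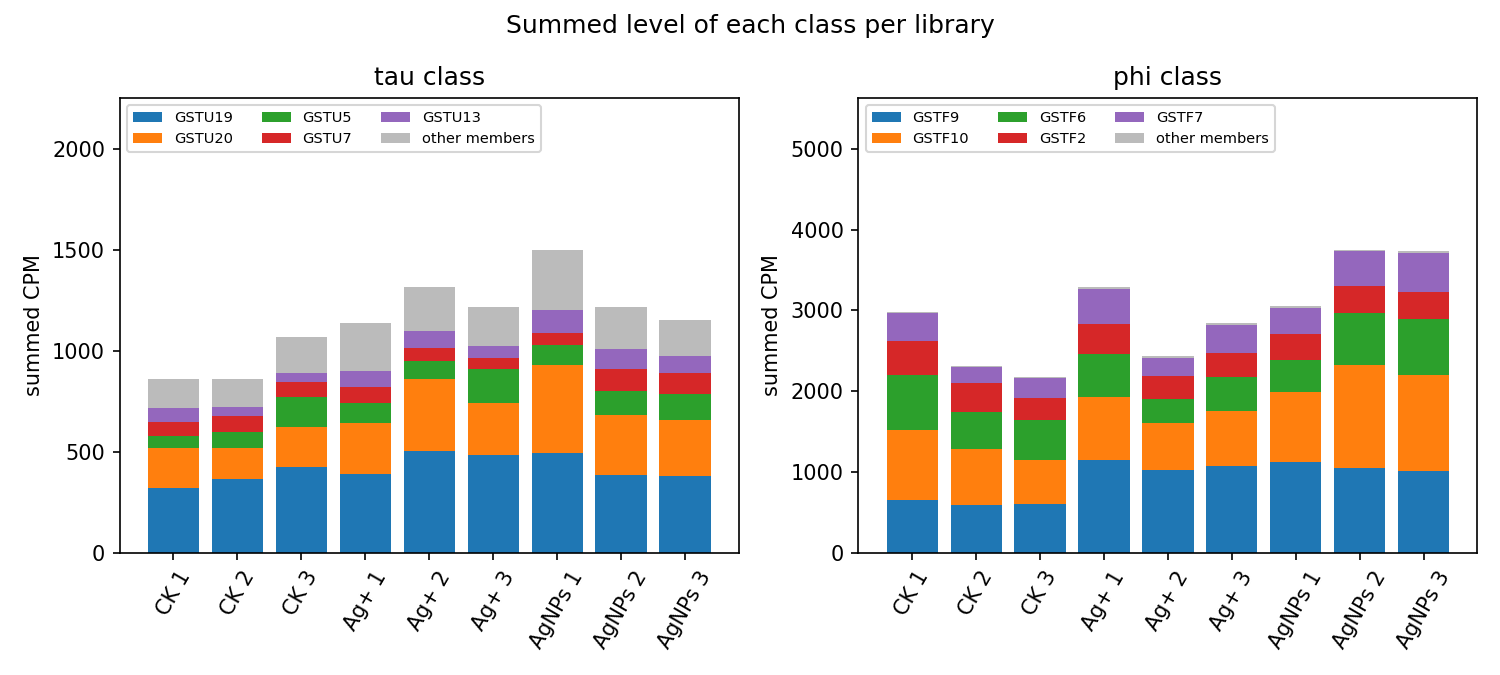
Summed level in CPM of the tau class (left) and the phi class (right) in each of the 9 libraries, with the 5 most abundant genes of each class in colour and the others in grey. The tau bars reach 861 to 1070 CPM in CK and 1141 to 1503 CPM with silver, and 5 genes fill nearly the whole phi bar.

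With silver ions, 4 members rose and none fell: GSTU17 and GSTU27 of the tau class, and GSTF9 and GSTF12 of the phi class. The other 33 tested members were not called. The 4 are 10.8% of the 37 tested members, against 5.57% of all genes called in either direction, 3.52% called higher and 2.05% called lower. At an unadjusted p under 0.05 there were 8 of the 37 members, beside 3827 of all 19889 genes tested. The median log2 fold change was 0.29 over the tau genes and 0.36 over the phi genes, beside -0.01 over all genes. In 9 members every Ag+ library was above every CK library and in 2, GSTF13 and GSTF14, every one was below, against 12.7% and 10.7% of all genes, or 23.3% in either direction. Without Ag+ 1 the number of members called dropped to 2, and that of all genes from 1108 to 521.

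With silver nanoparticles, 4 members also rose and none fell: GSTU9, GSTU17 and GSTU27 of the tau class, and GSTF9 of the phi class. The share of 10.8% stood beside 3.32% of all genes called in either direction, 2.23% called higher and 1.09% called lower. At an unadjusted p under 0.05 there were 14 of the 37 members, beside 3374 of all 19889 genes tested. The median log2 fold change was 0.54 for tau and 0.20 for phi, beside -0.0026 for all genes. The libraries were fully above CK in 11 members and fully below in GSTU16, against 11.4% and 11.1% of all genes, or 22.6% in either direction. The count was 1 without CK 2, 1 without AgNPs 2, and 2 when only the 6 libraries compared were fitted. In these fits 245, 224 and 351 of all genes were called, against 660 in the main fit. The members called were 9 with DESeq2 and 7 without the filter on low counts, beside 1447 and 652 of all genes. Leaving out AgNPs 1 and CK 3 together gave 10 calls here and 7 for Ag+, beside 1603 and 2003 of all genes.

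**Figure D2:**
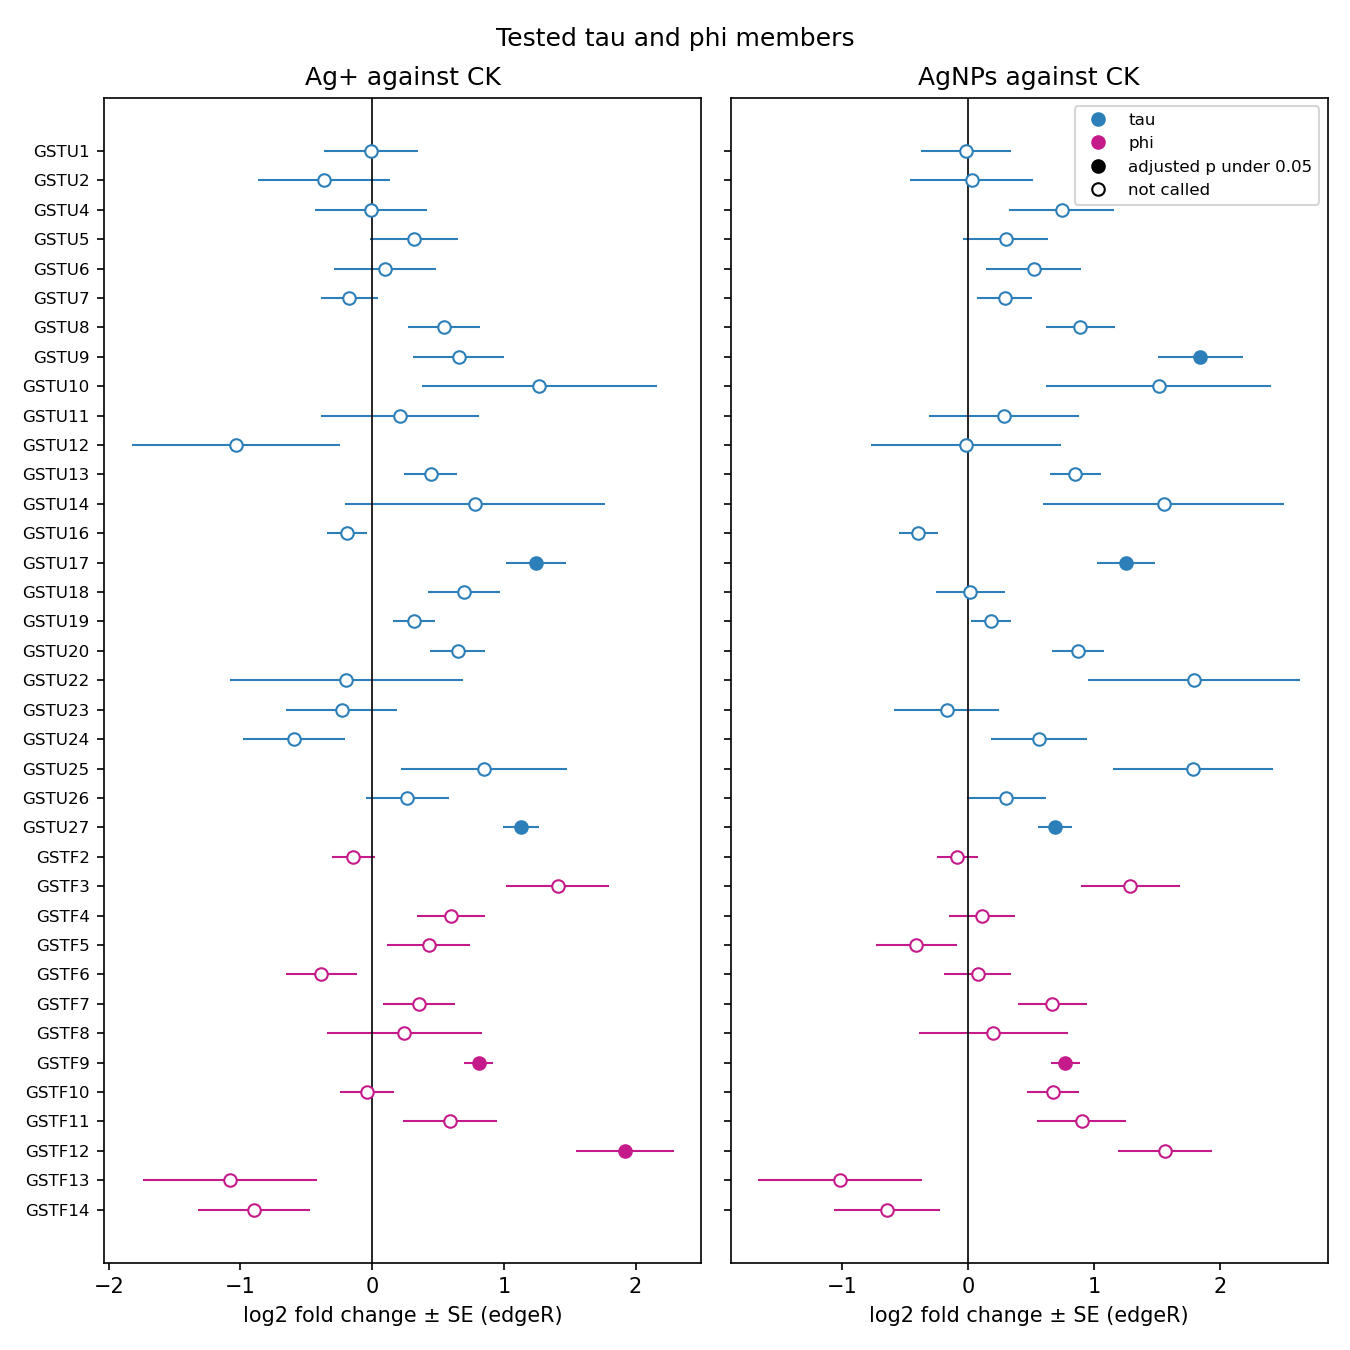
Fitted log2 fold change with its standard error for each of the 37 tested members, Ag+ against CK on the left and AgNPs against CK on the right, which share the CK libraries; filled points are called at an adjusted p under 0.05. GSTU17, GSTU27 and GSTF9 are filled on both sides, GSTF12 only on the left and GSTU9 only on the right, and no filled point lies below 0.

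GSTF9 (AT2G30860), the most abundant member, kept its call with both agents in every alternative. GSTF9 has glutathione transferase and peroxidase activity and lies beside GSTF10 on chromosome 2. Its level was 656, 599 and 603 CPM in CK, 1152, 1026 and 1073 CPM with Ag+, and 1121, 1045 and 1008 CPM with AgNPs. The silver groups overlapped each other and neither touched CK. The log2 fold change was 0.81 ± 0.11 (SE, n = 3 libraries a group) with Ag+, with an adjusted p of 0.0040 by edgeR, and 0.77 ± 0.11 with AgNPs, with an adjusted p of 0.0065. Over the 19 alternative settings tried, the adjusted p stayed at or below 0.0221 for Ag+ and 0.0389 for AgNPs. The direct difference between AgNPs and Ag+ was -0.03 ± 0.11.

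GSTF12 (AT5G17220), known as TRANSPARENT TESTA 19, carries anthocyanins to the vacuole. Its level was 0.844, 2.33 and 2.35 CPM in CK, 6.85, 6.06 and 7.97 CPM with Ag+, and 7.01, 5.66 and 3.68 CPM with AgNPs. Every silver library was above every CK library. The log2 fold change was 1.92 ± 0.37 with Ag+, with an adjusted p of 0.0179. With AgNPs it was 1.56 ± 0.37, with an adjusted p of 0.0530, which did not pass. The Ag+ call was also lost without Ag+ 1, Ag+ 2 or Ag+ 3, with adjusted p values of 0.0584, 0.0528 and 0.0556 and log2 fold changes of 1.81 to 2.01. At these levels GSTF12 made up 0.0283% to 0.280% of the phi sum.

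GSTU27 (AT3G43800), a tau gene that stands alone on chromosome 3, was at 27.2, 23.5 and 25.6 CPM in CK, 63.6, 51.1 and 52.3 CPM with Ag+, and 44.3, 43.5 and 35.5 CPM with AgNPs. The 3 groups did not overlap, with AgNPs between the others. The log2 fold change was 1.13 ± 0.14 with Ag+, with an adjusted p of 0.0021 that stayed at or below 0.0133 over the alternatives. With AgNPs it was 0.69 ± 0.14, with an adjusted p of 0.0265. That call was lost without CK 2, AgNPs 1 or AgNPs 2, at 0.112, 0.0526 and 0.113, and at 0.0547 in the fit of 6 libraries. Against Ag+ directly, AgNPs differed by -0.44 ± 0.14, which did not pass at an adjusted p of 0.180.

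GSTU17 (AT1G10370), studied in Arabidopsis for its part in light signalling and the response to drought, was at 4.96, 5.24 and 8.85 CPM in CK, 17.0, 13.6 and 14.6 CPM with Ag+, and 13.0, 16.3 and 16.1 CPM with AgNPs. Neither silver group touched CK, and the silver groups overlapped. The log2 fold change was 1.24 ± 0.23 with Ag+, with an adjusted p of 0.0139, and 1.25 ± 0.23 with AgNPs, with an adjusted p of 0.0179. The Ag+ call was lost without CK 2, at 0.0558, and without Ag+ 1, at 0.0570. The AgNPs call was lost without CK 1, CK 2, AgNPs 2 or AgNPs 3, at 0.0504, 0.0801, 0.0757 and 0.0670, and in the fit of 6 libraries, at 0.0653. CK 3, the CK library with high heat-shock genes, was also the highest CK library for GSTU17. Without CK 3 and AgNPs 1 the log2 fold changes were 1.56 with Ag+ and 1.67 with AgNPs.

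GSTU9 (AT5G62480), a tau gene that stands alone on chromosome 5, was at 0.943, 0.854 and 1.59 CPM in CK, 2.35, 1.39 and 1.64 CPM with Ag+, and 5.17, 3.64 and 3.41 CPM with AgNPs. The AgNPs libraries were above all 6 others, and Ag+ overlapped CK. The log2 fold change was 1.84 ± 0.34 with AgNPs, with an adjusted p of 0.0183, and 0.66 ± 0.35 with Ag+, which did not pass at 0.345. The AgNPs call was lost without CK 1, CK 2 or AgNPs 2, at 0.0560, 0.0852 and 0.0612. The direct difference of AgNPs from Ag+ was 1.18 ± 0.33, with an adjusted p of 0.141. A difference between the agents was therefore not shown for GSTU9. Its highest library was AgNPs 1, and without AgNPs 1 and CK 3 its log2 fold change against CK was 1.96.

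**Figure D3:**
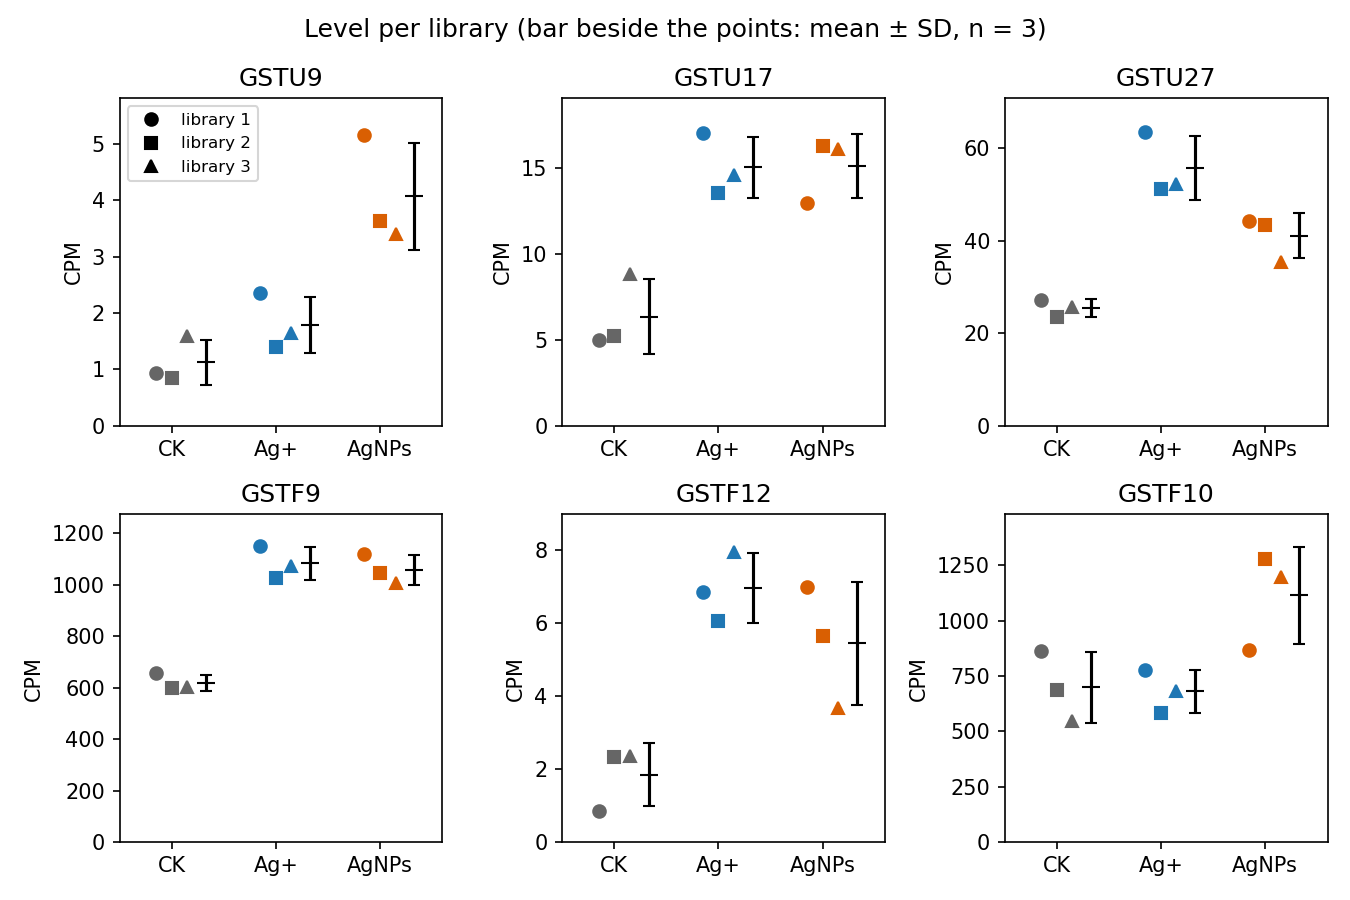
Level in CPM of the 5 called members and of GSTF10 in each library (points, the shape giving the library number), with the mean and SD of the 3 libraries beside them. GSTF9 separates CK, at 599 to 656 CPM, from all 6 silver libraries, at 1008 to 1152 CPM, while its neighbour GSTF10 overlaps between CK and Ag+.

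The 250 bases upstream of the start of the 3 genes called with both agents are shown because these genes rose against CK with both. They are taken from the RefSeq TAIR10.1 genome, each 5′ to 3′ on the strand of its gene. Capitals mark matches, on either strand, to TGACG (the core bound by TGA factors), TTGAC (the W-box core bound by WRKY factors), CACGTG (the G-box) or GCCGCC (the core bound by ethylene response factors).
GSTU17, chr1:3398359-3398608, minus strand: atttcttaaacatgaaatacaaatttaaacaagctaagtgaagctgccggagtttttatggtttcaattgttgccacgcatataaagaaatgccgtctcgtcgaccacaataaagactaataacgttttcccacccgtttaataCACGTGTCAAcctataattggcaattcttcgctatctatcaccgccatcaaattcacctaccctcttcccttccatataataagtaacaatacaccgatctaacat
GSTU27, chr3:15660520-15660769, plus strand: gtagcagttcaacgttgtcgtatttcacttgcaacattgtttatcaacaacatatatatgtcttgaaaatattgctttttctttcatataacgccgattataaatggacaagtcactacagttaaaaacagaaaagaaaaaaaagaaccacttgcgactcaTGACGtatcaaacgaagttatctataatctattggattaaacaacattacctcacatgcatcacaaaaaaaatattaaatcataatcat
GSTF9, chr2:13138632-13138881, plus strand: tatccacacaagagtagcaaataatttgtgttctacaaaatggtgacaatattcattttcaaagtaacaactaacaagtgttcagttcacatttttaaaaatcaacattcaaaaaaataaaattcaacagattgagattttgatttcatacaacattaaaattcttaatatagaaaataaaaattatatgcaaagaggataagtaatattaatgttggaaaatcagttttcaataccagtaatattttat
GSTU17 held a CACGTG that overlaps a TTGAC read on the other strand, GSTU27 held a single TGACG, and GSTF9 held none of the 4. TGACG and TTGAC overlap where TTGACG occurs. In the upstream windows of the whole families, TGACG was found in 11 of 28 tau genes and 3 of 13 phi genes, beside 18.6% of the 27443 windows of coding genes. TTGAC was found in 17 tau and 7 phi genes, beside 44.9%. CACGTG was found in GSTU17, GSTU18 and GSTF6, beside 6.49%. The window of GSTU18 lies within the GSTU17 gene, on the same strand. GCCGCC was found in GSTU10, GSTU12 and GSTU13 and in no phi gene, beside 1.87%. Of the 5 called members, TGACG was in GSTU9 and GSTU27, and TTGAC in GSTU9, GSTU17 and GSTF12. A match describes letters only and not a bound site.

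Between the agents, no member passed the test in AgNPs against Ag+ with edgeR, where 0.684% of all genes were called, 0.508% higher and 0.176% lower. At an unadjusted p under 0.05 there were 7 of the 37 members, beside 2947 of all 19889 genes tested. Limma with voom weights called 0 members, and DESeq2 called 3, GSTU9, GSTU24 and GSTF10. Of all genes, voom called 50 and DESeq2 870, against 136 with edgeR. The AgNPs libraries were fully above Ag+ in 4 members, GSTU9, GSTU13, GSTU24 and GSTF10, and fully below in 2, GSTU27 and GSTF5, against 10.4% and 11.7% of all genes, or 22.1% in either direction. GSTF10 (AT2G30870), which interacts with the brassinosteroid co-receptor BAK1, had the clearest separation among the abundant members. It was at 864, 688 and 545 CPM in CK, 777, 583 and 680 CPM with Ag+, and 867, 1278 and 1196 CPM with AgNPs. The AgNPs libraries were above all others, though AgNPs 1, at 867 CPM, lay just above CK 1. Against CK, the log2 fold change of GSTF10 with AgNPs was 0.67 ± 0.21, with an adjusted p of 0.120. It passed in 2 of the 19 alternatives. The difference of AgNPs from Ag+ was 0.71 ± 0.21 with an adjusted p of 0.154, and without AgNPs 1 it was 0.86 with 0.0557. GSTU24 differed from Ag+ by 1.16 ± 0.39 in the main fit, with an adjusted p of 0.220. Without CK 3 alone, GSTU24 was the 1 member called, at 1.19 with an adjusted p of 0.0274, beside 311 of all genes. Without AgNPs 1 and CK 3 together, 4 members were called, GSTF10 and GSTU24 higher and GSTU18 lower among them, beside 1276 of all genes. GSTF10 was then at 0.86 with an adjusted p of 0.0121.

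Within each tandem cluster, at most 1 gene was called, beside 5.57% of all genes called with Ag+ and 3.32% with AgNPs. No test compared neighbours, so an uncalled neighbour is not shown to differ from a called one. GSTU17 was called and its neighbour GSTU18 was not. GSTU18 (AT1G10360) was at 34.6, 31.9 and 21.9 CPM in CK, 49.7, 57.8 and 36.1 CPM with Ag+, and 41.6, 26.2 and 21.8 CPM with AgNPs, so that Ag+ lay above CK and AgNPs overlapped both. Its log2 fold change with Ag+ was 0.70 ± 0.27, with an adjusted p of 0.199. It passed at 0.0393 with the library number as a block, and at 0.0415 with the heat-shock covariate. For GSTU18, AgNPs differed from Ag+ by -0.68 ± 0.27, with an adjusted p of 0.292. The annotated transcripts of these neighbours share 71 bases on the same strand. In the GSTU19 to GSTU23 cluster, which holds the highest tau levels, none was called. GSTU19 (AT1G78380), known for high activity on model substrates and for its induction by herbicide safeners, was at 320 to 427 CPM in CK, 393 to 505 CPM with Ag+ and 380 to 497 CPM with AgNPs, which overlap. GSTU20 (AT1G78370), which interacts with the jasmonate-conjugating enzyme JAR1, was at 152 to 200 CPM in CK, 253 to 355 CPM with Ag+ and 279 to 434 CPM with AgNPs, and neither silver group touched CK. Its log2 fold change was 0.65 ± 0.21 with Ag+, with an adjusted p of 0.111, and 0.87 ± 0.21 with AgNPs, with 0.0530. In the same cluster GSTU22 and GSTU23 stayed at 0.326 to 12.0 CPM and 0.837 to 2.35 CPM, and GSTU21 was nearly silent.

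None of the 6 tested genes of the GSTU1 to GSTU7 cluster was called with either agent. GSTU5 (AT2G29450) was the most abundant of them, at 59.5, 79.7 and 147 CPM in CK, 98.6, 91.7 and 167 CPM with Ag+, and 101, 121 and 130 CPM with AgNPs. CK 3 was above 5 of the 6 silver libraries. GSTU7, a peroxidase-active member, was at 67.4 to 79.3 CPM in CK, 55.8 to 78.6 CPM with Ag+ and 60.5 to 110 CPM with AgNPs. GSTU1 and GSTU4 were at 4.37 to 12.0 CPM and 2.94 to 11.4 CPM over all libraries, and GSTU2 and GSTU6 at 0.347 to 1.13 CPM and 0.893 to 2.15 CPM. Levels within the cluster thus spanned from single counts of GSTU3 to over 100 CPM of GSTU5.

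Among the other tau clusters, GSTU13, which takes part in indole glucosinolate metabolism, came close to a call with AgNPs. It was at 70.1, 47.3 and 46.5 CPM in CK, 80.6, 84.3 and 58.3 CPM with Ag+, and 114, 96.5 and 85.7 CPM with AgNPs, each AgNPs library above the 6 others. Its log2 fold change was 0.85 ± 0.20, with an adjusted p of 0.0514. It passed in 9 of the 19 alternatives, the heat-shock covariate among them at 0.0388, and was at 0.101 without AgNPs 1. Its neighbour GSTU14 was at 0.171 to 2.64 CPM. GSTU16 was at 13.2 to 15.9 CPM in CK, 11.6 to 13.7 CPM with Ag+ and 9.64 to 12.3 CPM with AgNPs, and its log2 fold change with AgNPs was -0.39 ± 0.15, with an adjusted p of 0.218, while GSTU15 had 1 count in all. GSTU11 and GSTU12 were at 1.44 to 7.96 CPM and 0.762 to 6.90 CPM, GSTU11 highest in Ag+ 1 and GSTU12 in CK 1. The single genes GSTU8 and GSTU10 were at 11.7 to 37.6 CPM and 0.149 to 4.74 CPM, both highest in AgNPs 1. GSTU8 with AgNPs had a log2 fold change of 0.89 ± 0.27, with an adjusted p of 0.125.

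GSTU24 and GSTU25, known for detoxifying the explosive TNT, each varied widely between the libraries of a group. GSTU25 was at 49.7 CPM in AgNPs 1 but 14.0 and 9.59 CPM in the other AgNPs libraries, beside 3.36 to 11.6 CPM in CK and 9.85 to 15.3 CPM with Ag+. Its log2 fold change with AgNPs was 1.78 ± 0.63, with an adjusted p of 0.189, and 0.74 without AgNPs 1. GSTU24 was at 34.2 CPM in CK 3 but 13.7 and 11.3 CPM in the other CK libraries, beside 9.44 to 16.4 CPM with Ag+ and 26.7 to 30.9 CPM with AgNPs. Its log2 fold change with AgNPs was 0.56 ± 0.38, with an adjusted p of 0.525, and 1.23 without CK 3, where it was called at 0.0184. GSTU26 was at 6.85 to 17.0 CPM, highest in AgNPs 1. Of the 24 tested tau genes, 11 were highest in AgNPs 1, the library with high root markers, against 1 of 13 phi genes, GSTF11. The share of all genes highest in AgNPs 1 was not counted. Whether the tau count exceeds that share is therefore not known. GSTU22 was at 12.0 CPM there and at 0.326 to 2.44 CPM in the other 8 libraries, and its difference of AgNPs from Ag+ was 1.99 ± 0.86, with an adjusted p of 0.324. IRT1, an iron transporter of root epidermis, was at 1.66 CPM in AgNPs 1, 0.0984 CPM in AgNPs 2 and 0 in the other 7 libraries.

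Beside GSTF9 and GSTF12, no phi gene passed. GSTF6 (AT1G02930), which conjugates glutathione to a camalexin precursor, was at 686, 455 and 496 CPM in CK, 534, 295 and 423 CPM with Ag+, and 400, 639 and 687 CPM with AgNPs, overlapping throughout. Its neighbour GSTF7 was at 197 to 339 CPM in CK, 223 to 429 CPM with Ag+ and 321 to 481 CPM with AgNPs, with a log2 fold change of 0.67 ± 0.27 with AgNPs and an adjusted p of 0.251. GSTF4 and GSTF5 in the same cluster were at 4.10 to 9.78 CPM and 1.98 to 5.35 CPM. GSTF4 with Ag+ had a log2 fold change of 0.60 ± 0.26, with an adjusted p of 0.243, and GSTF5 with AgNPs differed from Ag+ by -0.84 ± 0.32, with an adjusted p of 0.264. GSTF2, which binds small indolic and flavonoid compounds, was at 278 to 418 CPM in CK, 281 to 375 CPM with Ag+ and 315 to 344 CPM with AgNPs. Its close copy GSTF3 was at 0.645, 1.14 and 0.563 CPM in CK, 3.00, 1.72 and 1.52 CPM with Ag+, and 2.09, 1.67 and 1.97 CPM with AgNPs. Every silver library was above CK for GSTF3, with log2 fold changes of 1.41 ± 0.39 and 1.29 ± 0.39 and adjusted p values of 0.0711 and 0.117. GSTF11, GSTF13 and GSTF14 were at 2.11 to 7.26, 0.111 to 0.797 and 1.12 to 3.68 CPM, and the log2 fold change of GSTF11 with AgNPs was 0.90 ± 0.35, with an adjusted p of 0.224. GSTF8, a chloroplast-targeted enzyme known as a marker of early stress responses, held only 4 to 29 counts per library.

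GSTF6 and GSTF7 have coding sequences that are 94.3% identical, with 33 differences in 627 aligned bases, and GSTF2 and GSTF3 are 94.5% identical, with 35 differences in 639. The stretches of 120 bases with the most differences are shown because they let reads tell the copies apart. They are from RefSeq TAIR10.1, 5′ to 3′ on the coding strand, numbered from the A of the start codon, with the differing bases in capitals.
GSTF6, chromosome 1, coding bases 147 to 266: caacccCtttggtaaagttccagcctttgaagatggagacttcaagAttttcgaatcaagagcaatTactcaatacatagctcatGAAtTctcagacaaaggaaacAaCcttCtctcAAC
GSTF7, chromosome 1, coding bases 147 to 266: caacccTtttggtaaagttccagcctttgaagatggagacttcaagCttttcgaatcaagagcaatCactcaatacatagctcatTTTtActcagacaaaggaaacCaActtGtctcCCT
GSTF2, chromosome 4, coding bases 261 to 380: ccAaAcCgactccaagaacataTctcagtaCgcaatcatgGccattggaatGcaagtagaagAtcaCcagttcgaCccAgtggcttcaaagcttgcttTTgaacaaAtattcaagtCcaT
GSTF3, chromosome 2, coding bases 261 to 380: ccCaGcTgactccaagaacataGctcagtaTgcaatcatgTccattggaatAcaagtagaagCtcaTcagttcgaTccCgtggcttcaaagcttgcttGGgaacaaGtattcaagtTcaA
The first pair differs at 13 of the 120 bases and the second at 16. How reads that match both copies were counted was not given in the sources used here, so the split within each pair is uncertain, most of all for GSTF3 beside its far more abundant copy.

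Ratios between pairs of close relatives, per kb, compare genes within a library and do not depend on its depth. The ratio of GSTF6 to GSTF7 was 2.07, 2.36 and 2.15 in CK, 1.27, 1.35 and 1.29 with Ag+, and 1.27, 1.54 and 1.46 with AgNPs. All 6 silver libraries were below all CK libraries, while neither gene's level separated CK from silver. The ratio of GSTF9 to GSTF10 was 0.696, 0.799 and 1.02 in CK, 1.36, 1.62 and 1.45 with Ag+, and 1.19, 0.750 and 0.774 with AgNPs. It separated Ag+ from the other groups, and AgNPs 1 stood between. The ratio of GSTU19 to GSTU20 was 1.64 to 2.46 in CK, 1.46 to 1.95 with Ag+ and 1.17 to 1.40 with AgNPs, with AgNPs below both. GSTU17 to GSTU18 was 0.126, 0.144 and 0.355 in CK, 0.206 to 0.355 with Ag+ and 0.274 to 0.649 with AgNPs, which overlap through CK 3. For GSTF2 and GSTF3, which are close copies on different chromosomes, the ratio was 225 to 461 in CK, 88.7 to 141 with Ag+ and 107 to 146 with AgNPs. The ratios of GSTU5 to GSTU7, GSTU13 to GSTU14 and GSTF6 to GSTF2 overlapped between all groups. GSTU24 to GSTU25 was 1.88 to 2.84 in CK, 0.521 to 1.41 with Ag+ and 0.526 to 2.35 with AgNPs. No test was made of the ratios, and pairs were chosen with their levels known. The share of other gene pairs whose ratios separate the groups was not counted.

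**Figure D4:**
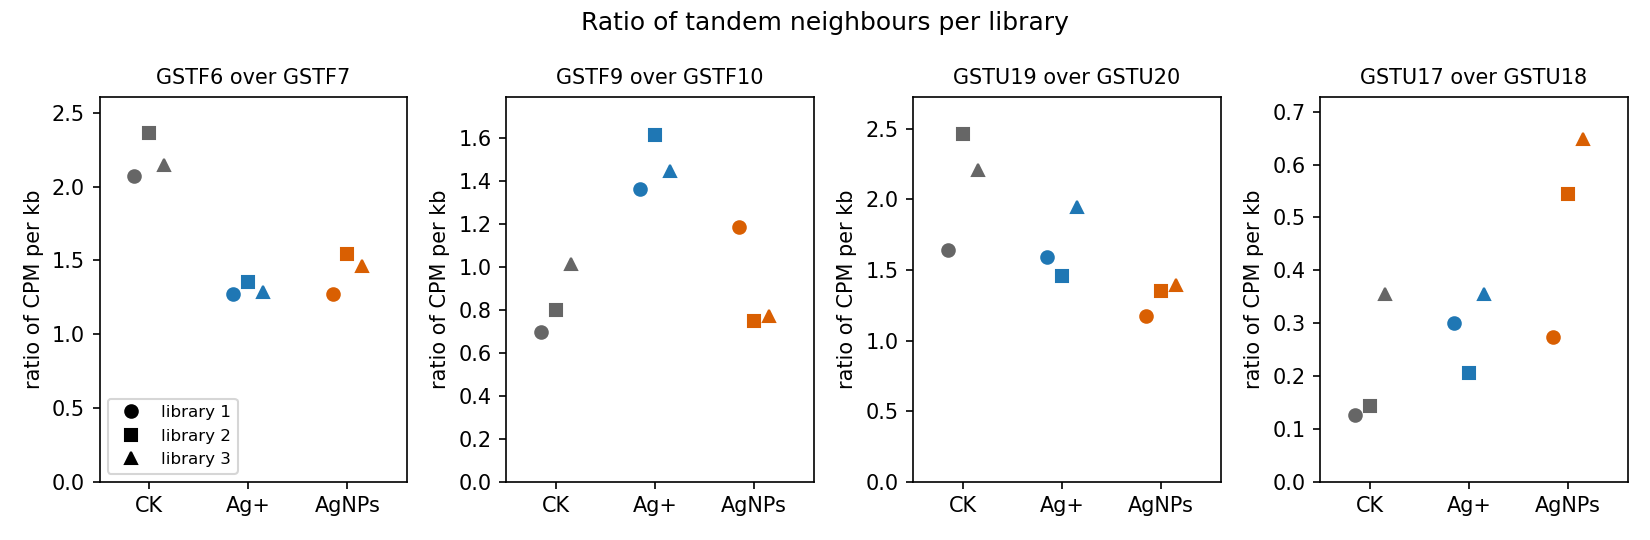
Ratio of CPM per kb between tandem neighbours in each library (points, the shape giving the library number), for 4 pairs of neighbours. GSTF6 over GSTF7 is 2.07 to 2.36 in CK and 1.27 to 1.54 in the silver libraries, and GSTF9 over GSTF10 is highest with Ag+, at 1.36 to 1.62.

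Gene pairs on opposite strands limit some of these values. The annotation places another gene over at least 25% of the transcript of 6 members, GSTU2, GSTU6, GSTU7, GSTF2, GSTF4 and GSTF11, always on the opposite strand. GSTF11 is covered over its whole length, and GSTF2 over 60.5%. Whether counting used the strand was not given in the sources used here, so reads from these genes and their antisense partners cannot be told apart. None of the 5 called members was among them.

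Other genes around glutathione were read beside the members. Of 12 tested genes of other glutathione transferase classes, 2 rose with both agents, or 16.7% of the list beside 5.57% of all genes with Ag+ and 3.32% with AgNPs. DHAR1, a dehydroascorbate reductase, was at 120 to 163 CPM in CK, 252 to 300 CPM with Ag+ and 203 to 257 CPM with AgNPs, with log2 fold changes of 1.04 ± 0.15 and 0.72 ± 0.15 and adjusted p values of 0.0056 and 0.0351. GSTL1, of the lambda class, was at 0.569 to 1.19 CPM in CK, 2.11 to 6.20 CPM with Ag+ and 2.98 to 3.44 CPM with AgNPs, with adjusted p values of 0.0247 and 0.0490. Leaving out 1 library at a time, DHAR1 stayed called in 9 of 9 fits with Ag+, but with AgNPs only without CK 3, its adjusted p reaching 0.135 otherwise. GSTL1 lost its Ag+ call without CK 2, CK 3 or Ag+ 1, at up to 0.0904, and kept its AgNPs call only without Ag+ 1 or Ag+ 2, reaching 0.180 otherwise. The median log2 fold change of this list was 0.13 with Ag+ and 0.0060 with AgNPs. Of 11 tested genes of glutathione synthesis, conjugate transport and turnover, 1 was called with Ag+, or 9.09% beside 5.57% of all genes. GGT4, a vacuolar enzyme that starts the breakdown of conjugates, rose with Ag+ by 0.74 ± 0.14, with an adjusted p of 0.0179. None was called with AgNPs, where 1 of the 11 passed an unadjusted p under 0.05, beside 3374 of all 19889 genes. GGT4 lost its call without CK 2, Ag+ 2 or Ag+ 3, at up to 0.0758.

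Of 17 tested genes of the xenobiotic and oxylipin response, 1 rose and 1 fell with Ag+, or 11.8% beside 5.57% of all genes. None of the 17 was called with AgNPs, where 3 passed an unadjusted p under 0.05, beside 3374 of all 19889 genes. CYP81D11, a cytochrome P450 induced by xenobiotics and jasmonates, rose by 1.37 ± 0.29 on the log2 scale, with an adjusted p of 0.0272, and lost its call without CK 3, Ag+ 1 or Ag+ 2, at up to 0.0924. DTX1, an efflux carrier for toxic compounds, fell by 0.97 ± 0.22, with an adjusted p of 0.0296, and lost its call without CK 1, CK 2, Ag+ 2, Ag+ 3 or AgNPs 2, at up to 0.0920. GSTU24 and GSTU25, often induced with CYP81D11 by xenobiotics, were not called with Ag+. Of 11 anthocyanin genes, 4 rose with Ag+, or 36.4% beside 5.57% of all genes, and 2 with AgNPs, beside 3.32% of all genes. Their summed level was 67.7, 96.0 and 238 CPM in CK, 197, 146 and 170 CPM with Ag+, and 158, 142 and 119 CPM with AgNPs. CK 3 was thus the highest of the 9 libraries in this sum. DFR, dihydroflavonol reductase, went from 1.34 to 1.71 CPM in CK to 11.5 to 17.1 CPM with Ag+ and 5.70 to 11.3 CPM with AgNPs, with log2 fold changes of 3.16 ± 0.29 and 2.38 ± 0.29 and adjusted p values of 6.00e-04 and 0.0030, kept in every alternative. UF3GT, an anthocyanin glycosyltransferase, rose with both agents, by 2.38 ± 0.41 and 1.82 ± 0.42, with adjusted p values of 0.0114 and 0.0452, the latter kept only without CK 3 or Ag+ 3 among the fits without 1 library and reaching 0.149 otherwise. LDOX and 5MAT, an anthocyanidin synthase and an acyltransferase, rose with Ag+ by 1.80 ± 0.34 and 1.88 ± 0.34, with adjusted p values of 0.0149 and 0.0126, and lost their calls without Ag+ 1, at 0.0612 and 0.0503, LDOX also without CK 1 or CK 2, at 0.0539 and 0.0528. The anthocyanin carrier GSTF12 rose with Ag+ as these 4 did. The list's median log2 fold change was 0.82 with Ag+ and 0.23 with AgNPs. No gene of the 4 lists was called in AgNPs against Ag+. There, 12 of their 51 tested genes passed an unadjusted p under 0.05, beside 2947 of all 19889 genes.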

How the data were processed

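The authors deposited raw read counts per gene for the 9 libraries. Per the submitters' processing notes, HISAT2 and TAIR10 were used; the counting tool, its strand setting and versions were not given in the sources used here. Per the labels' protocols, ribosomal RNA was depleted before paired-end sequencing.

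Counts were tested in R 4.3.3 with edgeR 4.0.16: filterByExpr, TMM scaling, a robust quasi-likelihood fit of all 9 libraries by group, and two-sided tests adjusted by Benjamini-Hochberg over 19889 genes in each of 3 comparisons. The biological coefficient of variation was 22.5%. The code was tested on simulated data. CPM used TMM-scaled library sizes. Levels per kb used RefSeq transcript lengths, taken for 27444 coding genes. Of the genes in the count table, 37751 had their identifier in the RefSeq gene list. Gene structures and sequences came from the RefSeq TAIR10.1 genome; the count table holds no coordinates. Alternatives included DESeq2 1.42.0, limma 3.58.1 with voom, other scalings and filters, a heat-shock covariate, and leaving out libraries. Counting error depends on a gene's own counts and is larger for scarce members, such as the called GSTU9 and GSTF12, with 15 to 31 and 17 to 46 counts in the CK libraries.

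The members and lists were chosen with earlier results of these data known. Named are members called in at least 1 comparison, the 3 most abundant of each class, and neighbours of called members in a tandem cluster; others are given by range. A member with an unadjusted p under 0.05 was given its fold change as well. From each list, up to 4 called genes with the smallest adjusted p are named. Deviations of same-numbered CK and Ag+ libraries from their group means had correlations of 0.123, 0.186 and 0.231. Both other comparisons held pairs with a negative correlation. No correlation was computed between differently numbered libraries, so these values cannot decide whether the numbers pair libraries. The main fit did not use the numbers, so its p-values for Ag+ against CK leave out any such pairing. A replicate block was fitted as an alternative. Replicate libraries differed by more than sampling noise, with chi-square per degree of freedom of 8.99 to 64.2 over pairs of one group.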

Additional observations from a re-analysis of the deposited data

How the results depend on the processing

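Calls of GSTF9 with both agents and of GSTU27 with Ag+ were kept in all 19 alternatives, and no called member changed direction. Calls near the threshold moved most, and the causes were not tested. Over AgNPs against CK, the members called were 9 with DESeq2, 7 without the filter on low counts, 2 with only the 6 libraries compared and 1 to 5 without 1 library. For Ag+ against CK they were 2 to 5 without 1 library, and for AgNPs against Ag+ 0 to 1, 3 with DESeq2 and 1 with only the 6 libraries compared. Without AgNPs 1 and CK 3 together they were 7, 10 and 4. With DESeq2, all genes called were 1901 for Ag+, 1447 for AgNPs and 870 between the agents. They were 50 between the agents with limma voom, 351 for AgNPs and 408 between the agents with only the 6 libraries compared, and 1093 and 452 with the heat-shock covariate. Without AgNPs 1 and CK 3 they were 2003, 1603 and 1276. Without 1 library they ranged from 419 to 1372, 224 to 809 and 0 to 444. Genes called in the 4 lists with AgNPs were 7 with DESeq2, 2 with voom, 2 with only the 6 libraries compared, 7 without AgNPs 1 and CK 3, and 1 to 6 without 1 library. For Ag+ they were 5 to 10 without 1 library, and between the agents 4, 1 and 3 with DESeq2, the 6 libraries and without both libraries, and 0 to 1 without 1 library. The phi ratio with Ag+ was -0.0774 without GSTF9.

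Correlations of same-numbered libraries' deviations from their group means were 0.123 to 0.231 between CK and Ag+. Between AgNPs and either CK or Ag+ they ran from -0.206 to 0.122. Whether the replicate numbers pair libraries was not tested. With the numbers as a replicate block, 5 members were called for Ag+, 5 for AgNPs and 0 between the agents, with 236 of all genes and 1 list gene between the agents; with Ag+, GSTU18 passed at 0.0393 and no other named call changed. In the same block fit, GSTU13 passed with AgNPs at 0.0150, and UF3GT with AgNPs did not, at 0.0538.

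Only uncalled log2 fold changes turned in sign. With AgNPs against CK these were GSTU18, at -0.0129 with voom, -0.0124 with the heat-shock covariate, -0.4684 without AgNPs 1 and CK 3 and -0.2934 to 0.2003 without 1 library, GSTF4, at -0.1840 and -0.1645 to 0.2933, and GSTF6, at -0.0707 to 0.2822. With Ag+ they were GSTU22, at 0.0226 without both libraries and -1.0763 to 0.2416 without 1, GSTU24, at 0.0679 and -0.8877 to 0.0451, GSTF10, at -0.2142 to 0.1424, and GSTU5, at -0.0023 to 0.7552. Between the agents they were GSTU5, at 0.0257 with voom, 0.0372 with the replicate block, 0.0105 with only the 6 libraries, 0.0763 without both and -0.1790 to 0.3006 without 1, GSTU17, at -0.0001 with the replicate block and -0.0639 to 0.1068, GSTF9, at 0.0002 with the 6 libraries and -0.0787 to 0.0102, GSTU20, at -0.0086 without both and -0.0080 to 0.3963, GSTU25, at -0.1097 without both and -0.1088 to 1.3182, GSTF3, at -0.3037 to 0.2313, and GSTL1, at -0.4850 to 0.3992. Scaling by RLE or the upper quartile moved the median of all genes by 0.0161 at most.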

Other observations

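GSTF8 was at 1.29, 0.854 and 0.460 CPM in CK, 1.04, 1.11 and 0.938 CPM with Ag+, and 0.246, 1.18 and 1.55 CPM with AgNPs, beside 545 to 1278 CPM for GSTF10 in the same class. GSTF8 has a transcript of 1748 bases in RefSeq, the longest of the phi class. Read on the coding strand, it had no exact stretch of 150 bases in common with transcripts of another coding gene. The count table's own gene models were not analysed here, and what set this level was not tested.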
